A study of Mus musculus with 8 samples.

Results

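The noncoding transcripts of the imprinted Dlk1-Dio3 region of mouse chromosome 12 were followed across Runx1 knockout (ko) and wt hemogenic endothelium, the endothelial cells from which blood cells arise. The members were the rows of the deposited expression table whose Ensembl gene begins between Dlk1 and Dio3 in the GENCODE M21 annotation (GRCm38), together with rows named Meg3, Rian, Mirg, Mir3070a or Mir3070b. They numbered 49 of the 622 rows: 3 long intergenic noncoding RNAs (lincRNAs), 27 microRNA (miRNA) genes and 19 small nucleolar RNA (snoRNA) genes. Position chose 45 of them, and the symbol chose the 4 rows whose identifiers are not in M21. The ko cells were made from the mouse stem cell lines iDamko (named as the Runx1-/- form of iDam) and Ainv18ko (Ainv18 with Runx1-/-), and the wt cells from iDam and BryGFP, with 2 libraries per line. All 4 lines are of 129 strain and were carried as FLK1-positive cells from embryoid bodies through 2 days of blast culture and sorted as cKIT-positive, TIE2-positive and CD41-negative. Each genotype rests on 2 cell lines, no wt Ainv18 library was analysed here, and the number of clones behind a line was not given.

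In this region the maternal chromosome is known to transcribe a chain of noncoding RNAs in 1 direction, while the paternal chromosome expresses the protein-coding genes Dlk1, Rtl1 and Dio3. Meg3 (also called Gtl2) is the first of the chain, Rian carries a tandem array of C/D box snoRNAs, and Mirg hosts the distal miRNA cluster. C/D box snoRNAs usually guide methylation of other RNAs and are released from introns of a host transcript, where a C box near the 5′ end and a D box near the 3′ end protect them. miRNAs are cut from hairpins and pair with target messages mainly through their seed. RUNX1 is a transcription factor required for blood cells to emerge from endothelium.

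Each transcript below is placed by its GRCm38 coordinates. Meg3 lies at chr12:109541001-109571726, Rian at chr12:109603940-109661716 and Mirg at chr12:109729764-109749460, all on the plus strand, and the members spanned 208.46 kb. M21 lists 118 genes beginning between Dlk1 and Dio3, of which 67 are miRNA and 23 snoRNA genes, and the table held 27 and 19 rows of these kinds. By the M21 annotation, 7 miRNAs lay in exons of Mirg, and 2 in its introns. Mir341 and Mir1188 lay in introns of Rian. Mir1906-1 lay in an exon of Meg3, 7 snoRNAs lay in exons and 3 in introns of Rian, and 15 miRNAs and 9 snoRNAs lay outside these 3 annotated genes. Reads from a host exon and from the small RNA inside it cannot be told apart in these values. 5 of the miRNAs lay opposite Rtl1 on the other strand, and no source used here gives whether counting used strand. The row labelled Mir136 carries the identifier that M21 names Mir3071, a minus-strand gene overlapping Mir136, and is called Mir3071 here.

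The mature miRNAs are shown for the genes the results turn on, from RefSeq (GRCm38.p6), with the seed, bases 2 to 8, in capitals. RefSeq entries matched 26 of the 27 miRNA rows by symbol, Mir3071 aside. miR-1906 comes from the Meg3 exon, the miR-3070 forms from near-identical neighbouring hairpins, miR-431-5p from the cluster opposite Rtl1, and miR-134-5p and miR-485-3p from the Mirg cluster. miR-379-5p and miR-1193-5p are shown because they share a seed:
miR-1906: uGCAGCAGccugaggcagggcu
miR-3070-5p: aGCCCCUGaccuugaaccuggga
miR-3070-3p: uGGUGCUAccgucagggguaga
miR-3070-2-3p: uGGUGCUAuggucagggguaga
miR-431-5p: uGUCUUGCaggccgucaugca
miR-134-5p: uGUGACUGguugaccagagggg
miR-485-3p: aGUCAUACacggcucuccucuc
miR-379-5p: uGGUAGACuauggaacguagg
miR-1193-5p: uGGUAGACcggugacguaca
Of the 47 distinct mature names, only 2 seeds were shared: that of miR-379-5p and miR-1193-5p, and that of the 3p forms of Mir3070a and Mir3070b. The Mir3070a and Mir3070b hairpins, each of 89 bases, differ by 5 edits and have the same 5p product, so how reads were split between them is uncertain. The libraries were made from total RNA after ribosomal depletion, and a value for a miRNA gene counts reads over its hairpin, with no measure of the mature miRNA.

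The snoRNAs are shown in 2 sets, from the M21 transcripts, with C box (TGATGA beginning within the first 10 bases) and D box (the last CTGA within the last 20 bases) matches in capitals. The first 4 had the highest mean levels of the 19:
DQ267100: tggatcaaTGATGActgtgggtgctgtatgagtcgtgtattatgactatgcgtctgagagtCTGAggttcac
AF357425: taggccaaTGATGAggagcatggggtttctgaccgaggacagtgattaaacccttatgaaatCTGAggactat
Gm23787: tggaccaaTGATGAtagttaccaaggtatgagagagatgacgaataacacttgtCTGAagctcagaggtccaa
Gm24895: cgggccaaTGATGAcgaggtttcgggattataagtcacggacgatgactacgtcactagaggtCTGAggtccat
The other 6 are those in which 1 or both matches were not found:
Gm23600: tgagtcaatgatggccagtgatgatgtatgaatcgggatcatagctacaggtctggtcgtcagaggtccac
Gm23508: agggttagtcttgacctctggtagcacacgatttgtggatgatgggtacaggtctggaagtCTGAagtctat
Gm23474: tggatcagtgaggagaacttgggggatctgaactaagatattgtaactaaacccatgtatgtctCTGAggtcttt
Gm23347: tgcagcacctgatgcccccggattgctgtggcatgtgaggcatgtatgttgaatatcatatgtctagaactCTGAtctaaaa
Gm24899: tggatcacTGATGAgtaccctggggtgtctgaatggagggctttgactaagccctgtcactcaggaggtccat
Gm25224: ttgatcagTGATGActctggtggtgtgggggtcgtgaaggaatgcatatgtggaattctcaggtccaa
The remaining 9 snoRNAs held both matches, which makes 13 of 19 with both. In Gm23787, and in Gm25854 among the remaining 9, the D box match lies farther from the 3′ end than in the others with both. Whether those letters serve as the D box was not tested. Of 1507 snoRNA transcripts in M21, a class that also includes kinds without these boxes, 297 (19.7%) held both. AF357425 lies at chr12:109636012-109636084, Gm24895 at chr12:109646129-109646202, DQ267100 at chr12:109649617-109649688 and Gm23787 at chr12:109684962-109685034, all on the plus strand. The table labels the Gm24895 row Rian. Gm24895 differs by 2 edits from Gm24598 on chromosome X, and AF357425 by 4 edits from Gm22962 on chromosome 9, so reads may have been split between these copies.

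The data were values in RPKM (reads scaled by gene length and library size), with depths of 42270000 to 53100000 reads per Ainv18ko, iDam and BryGFP library implied by steps of whole reads in the low values. The depth of each iDamko library rested on 2 values and is known only loosely. All 622 rows were selected by the authors, with an FDR under 0.05 in both of their comparisons of ko with wt, so 100% of rows were called and the lower ko level of any member is a description, not independent evidence. Both of those comparisons use the same 4 ko libraries. Runx1, and the sort, endothelial, blood and pluripotent marker genes of a list of 10, were not analysed here, and neither were Dlk1, Rtl1, Dio3 or the other 3 of 6 listed coding genes of the region. The genotypes are therefore those of the labels. In bulk RNA, fewer cells of a type and less RNA per cell cannot be told apart.

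All 49 noncoding transcripts were lower in the ko lines, and for each of them every ko library lay below every wt library. Over the whole table this held for 383 of 622 rows (61.6%), and 387 rows (62.2%) were lower in ko by the authors' deposited table. The 49 made up 12.7% of those 387 rows. The nearest rows outside the region were Lgmn, 7.01 Mb before Dlk1, with means of 117 RPKM in ko and 53.8 RPKM in wt, and Gm266, 1.204 Mb beyond Dio3, with 1.07 RPKM in ko and 8.23 RPKM in wt. The 2 ko lines did not share a level: iDamko was at or close to 0 along the whole region, and Ainv18ko kept a low but measurable level over part of it.

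Rian, the snoRNA host and the most abundant of the 3 lincRNAs per length, was at 0.00334 and 0.00266 RPKM in the iDamko libraries and at 1.58 and 0.985 RPKM in Ainv18ko, against 21.4 and 22.5 RPKM in iDam and 36.0 and 53.3 RPKM in BryGFP. Meg3, the first transcript of the chain, was at 0 and 0.000401 RPKM in iDamko and 0.204 and 0.0667 RPKM in Ainv18ko, against 2.85 and 1.19 RPKM in iDam and 4.64 and 7.86 RPKM in BryGFP. Mirg, the host of the distal miRNA cluster, was at 0.0138 and 0 RPKM in iDamko and 0.172 and 0.0306 RPKM in Ainv18ko, against 2.73 and 2.39 RPKM in iDam and 4.35 and 5.83 RPKM in BryGFP. For all 3 lincRNAs the order of the lines was iDamko, Ainv18ko, iDam and BryGFP from low to high, with no overlap between neighbouring lines. In the authors' deposited table, Meg3 was lower in ko 26.9-fold when set against iDam, and 83.9-fold against BryGFP. The same table gave 31.2-fold and 66.3-fold for Rian, and 44.6-fold and 95.6-fold for Mirg. These folds pool the 4 ko libraries of both lines.

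**Figure D1:**
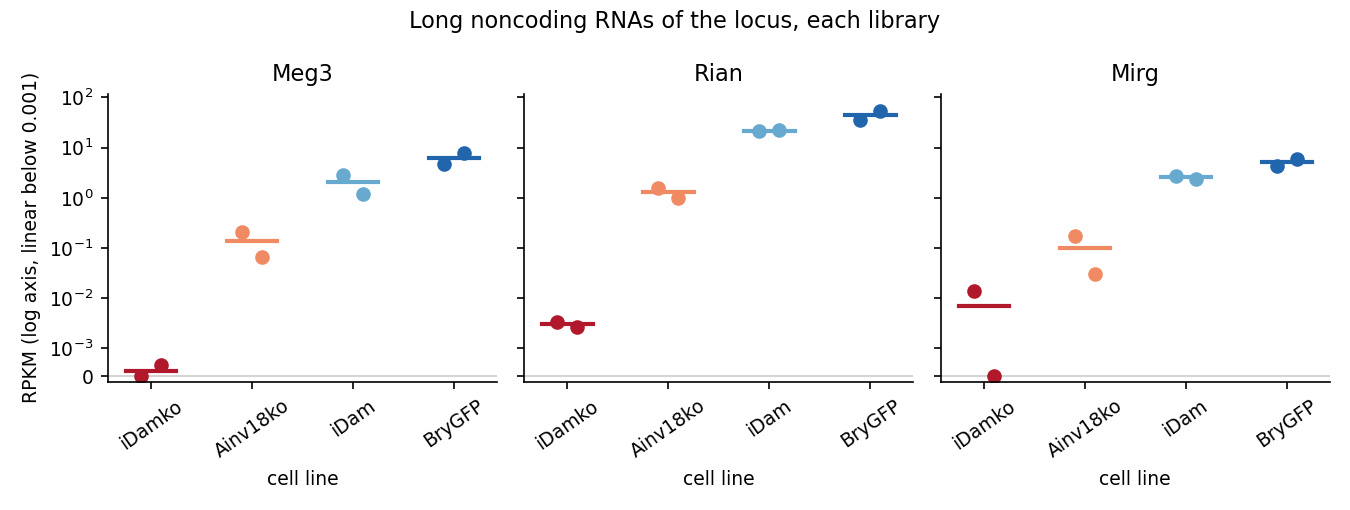
RPKM (log axis, linear below 0.001) of Meg3, Rian and Mirg in each library (points) with the line mean (bars), for iDamko, Ainv18ko, iDam and BryGFP. Rian stands at 0.00334 and 0.00266 RPKM in iDamko and at 36.0 and 53.3 RPKM in BryGFP, and the 4 lines keep the same order for the 3 RNAs.

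The promoter of Meg3, the first transcript of the chain, is shown as RefSeq gives it on the plus strand at chr12:109540746-109541045 (GRCm38.p6), from 250 bases before to 50 after the start. The match to the RUNX core motif TGTGGT, searched on both strands, is in capitals:
Meg3 promoter: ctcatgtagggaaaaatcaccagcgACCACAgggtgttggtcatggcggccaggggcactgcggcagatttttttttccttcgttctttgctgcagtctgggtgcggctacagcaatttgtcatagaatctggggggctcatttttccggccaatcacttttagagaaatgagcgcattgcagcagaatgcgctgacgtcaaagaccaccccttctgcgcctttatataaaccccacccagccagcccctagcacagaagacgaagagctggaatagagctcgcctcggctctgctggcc
The window held 1 match, beginning 225 bases before the start on the opposite strand (ACCACA). Of 32851 mouse promoters of the same 300 bases, 5506 (16.8%) held a match on either strand. A match of these letters is a description of the window and was not tied to binding by any measurement here.

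The highest levels per length were those of snoRNAs, 9 of the 19 having a wt mean above the 33.3 RPKM of Rian, the highest of the other members. Of the reads over the 46 small RNA genes, snoRNAs held 97.6% and 99.1% in the Ainv18ko libraries and 93.9% to 96.6% in the wt libraries. DQ267100 had 0 and 0 RPKM in iDamko and 19.1 and 19.01 RPKM in Ainv18ko, against 260 and 382 RPKM in iDam and 435 and 541 RPKM in BryGFP. AF357425 had 0 and 0 RPKM in iDamko and 36.7 and 21.7 RPKM in Ainv18ko, against 230 and 257 RPKM in iDam and 394 and 490 RPKM in BryGFP. In both snoRNAs the lines did not overlap, and Ainv18ko lay far above iDamko and far below the wt lines. Gm23787 had 0 and 0 RPKM in iDamko and 9.87 and 21.7 RPKM in Ainv18ko, against 187 and 246 RPKM in iDam and 282 and 291 RPKM in BryGFP. Gm24895 had 0 and 0 RPKM in iDamko and 8.52 and 6.38 RPKM in Ainv18ko, against 158 and 196 RPKM in iDam and 239 and 284 RPKM in BryGFP. These 4 snoRNAs held 62.5% to 64.9% of the reads over the 46 small RNA genes in the Ainv18ko libraries and 60.6% to 73.0% in the wt libraries.

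Within the snoRNA array, levels spanned a wide range. In Ainv18ko the 13 snoRNAs with both box matches had means of 0.765 to 29.2 RPKM, and the 6 without both had means of 0 to 0.275 RPKM. In wt the 13 had means of 7.11 to 405 RPKM, with a median of 87.2 RPKM, and the 6 had means of 1.49 to 5.13 RPKM, with a median of 3.31 RPKM. These sets did not overlap in Ainv18ko or in wt means. That separation depends on how far from the 3′ end a D box match was allowed to lie. Gm23787 and Gm25854, whose D box matches lie farther from that end, had wt means of 251.5 and 57.2 RPKM. Their Ainv18ko means were 15.8 and 5.94 RPKM. Counted among those without both, these snoRNAs would make the sets overlap in Ainv18ko and in wt means. The split by box matches was chosen after the levels were seen and was not tested. Of the 6 snoRNAs without both, Gm23474 and Gm25224 are the first and the last of the array along the chromosome, and the other 4 lie inside it.

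**Figure D2:**
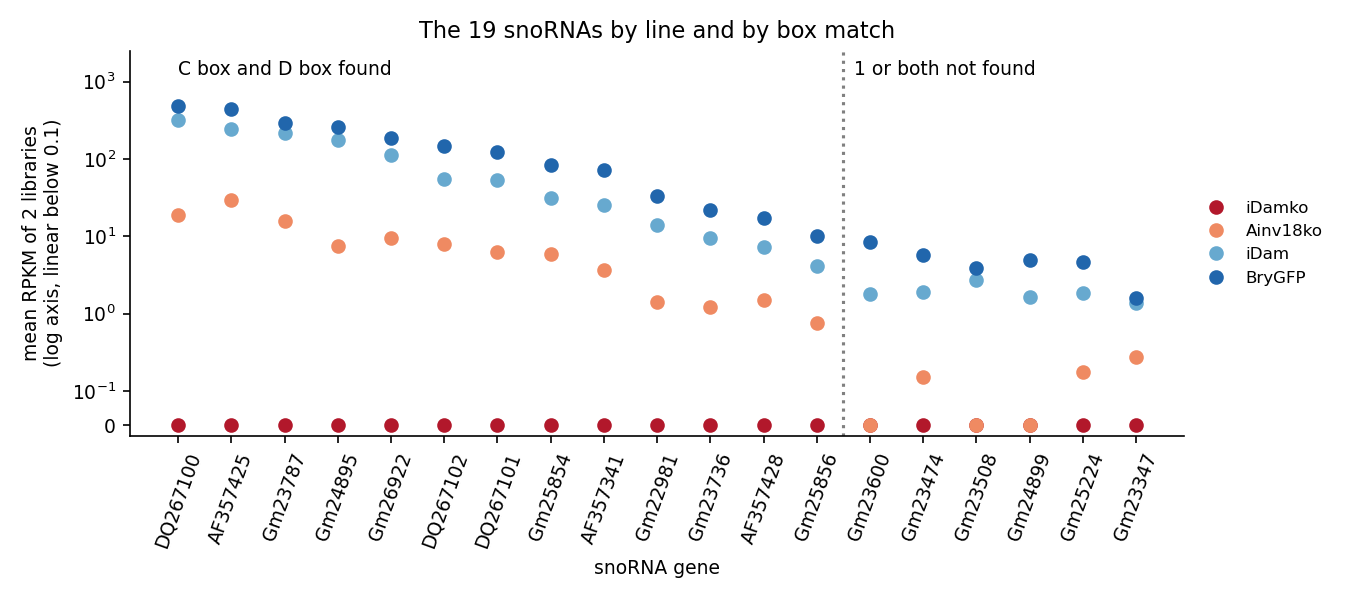
Mean RPKM of 2 libraries (log axis, linear below 0.1) of the 19 snoRNAs in iDamko, Ainv18ko, iDam and BryGFP, ordered by wt mean within those with both box matches (left of the dotted line) and those without (right). All 19 stand at 0 in iDamko, and points at 0 can cover each other. With the D box limit used, the sets do not overlap in wt mean. That mean is at least 7.11 RPKM on the left and at most 5.13 RPKM on the right.

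The 27 miRNA genes had lower levels per length than most snoRNAs, with line means of 0.762 to 4.96 RPKM in iDam and 0.964 to 13.0 RPKM in BryGFP, so each rested on few reads. Mir1906-1, in the Meg3 exon, had 0 and 0 RPKM in iDamko and 0.563 and 0.295 RPKM in Ainv18ko, against 3.30 and 1.77 RPKM in iDam and 10.1 and 15.9 RPKM in BryGFP. Behind these values stood an estimated 2 and 1 reads in Ainv18ko, against 14 and 6 reads in iDam and 36 and 66 reads in BryGFP. The lines did not overlap for Mir1906-1, as for its host. Mir3070a had 0 and 0 RPKM in iDamko and 0.253 and 0 RPKM in Ainv18ko, against 4.23 and 3.46 RPKM in iDam and 11.6 and 10.8 RPKM in BryGFP. Mir3070b had 0 and 0 RPKM in iDamko and 0.253 and 0 RPKM in Ainv18ko, against 2.75 and 1.33 RPKM in iDam and 8.09 and 7.36 RPKM in BryGFP. For both Mir3070 genes the 2 ko lines shared the value 0, and iDam lay below BryGFP. Mir134, known in neurons for restraining dendritic spine growth, had 0 and 0 RPKM in iDamko and 0.634 and 0 RPKM in Ainv18ko, against 6.37 and 3.00 RPKM in iDam and 8.87 and 10.3 RPKM in BryGFP. Mir431 was listed at 0 in all 4 ko libraries, against 2.69 and 3.12 RPKM in iDam and 13.3 and 5.08 RPKM in BryGFP. Mir485 was also listed at 0 in all 4 ko libraries, against 5.72 and 4.19 RPKM in iDam and 5.12 and 7.07 RPKM in BryGFP, and here the wt lines overlapped. Mir410, the last of the members to begin along the chromosome, was listed at 0 in the 4 ko libraries, against 1.16 and 0.876 RPKM in iDam and 1.67 and 1.90 RPKM in BryGFP.

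In the authors' deposited table the size of the ko difference varied widely among members. Over the 49, the median fold by which ko was lower was 29.7 against iDam, and 51.5 against BryGFP, while over the other 338 rows lower in ko it was 3.49-fold and 3.66-fold. These sets were not matched for reads, and a row of few reads passes the authors' FDR only with a large fold. The miRNAs had a median of 10.5 estimated reads per wt library. How far this selection sets the gap was not tested. By class, the authors' deposited table gave medians of 35.9-fold and 57.1-fold for miRNAs, 15.6-fold and 38.4-fold for snoRNAs, and 31.2-fold and 83.9-fold for lincRNAs. The smallest folds in the authors' deposited table were those of the snoRNA Gm23347, 8.50-fold and 10.8-fold. Its largest fold against iDam was that of Mir485, 147-fold, and its largest against BryGFP that of Mir431, 286-fold. Both of these miRNAs belong to the 21 members listed at 0 in all 4 ko libraries, 18 miRNAs and 3 snoRNAs, and a fold fitted against a group at 0 depends on the added prior and is no bound. With those 21 set to the floor of 3 reads over the 4 ko libraries, the median ratio of line mean RPKM over the 49 was 14.1 against iDam and 35.8 against BryGFP. The medians for miRNAs then came to 9.85 and 28.6, and those for snoRNAs to 15.3 and 37.3. With 18 of the 27 miRNAs at the floor, the miRNA medians depend on it. The other miRNAs kept their listed values, which rest on few ko reads, so the medians are no strict lower limits. The order of these classes in the authors' folds thus depends on how values of 0 are treated, and no order is read from either set of medians. With iDamko depths of 40000000 to 60000000 reads in this floor, the miRNA medians came to 8.52 to 10.6 against iDam and 24.8 to 30.7 against BryGFP.

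**Figure D3:**
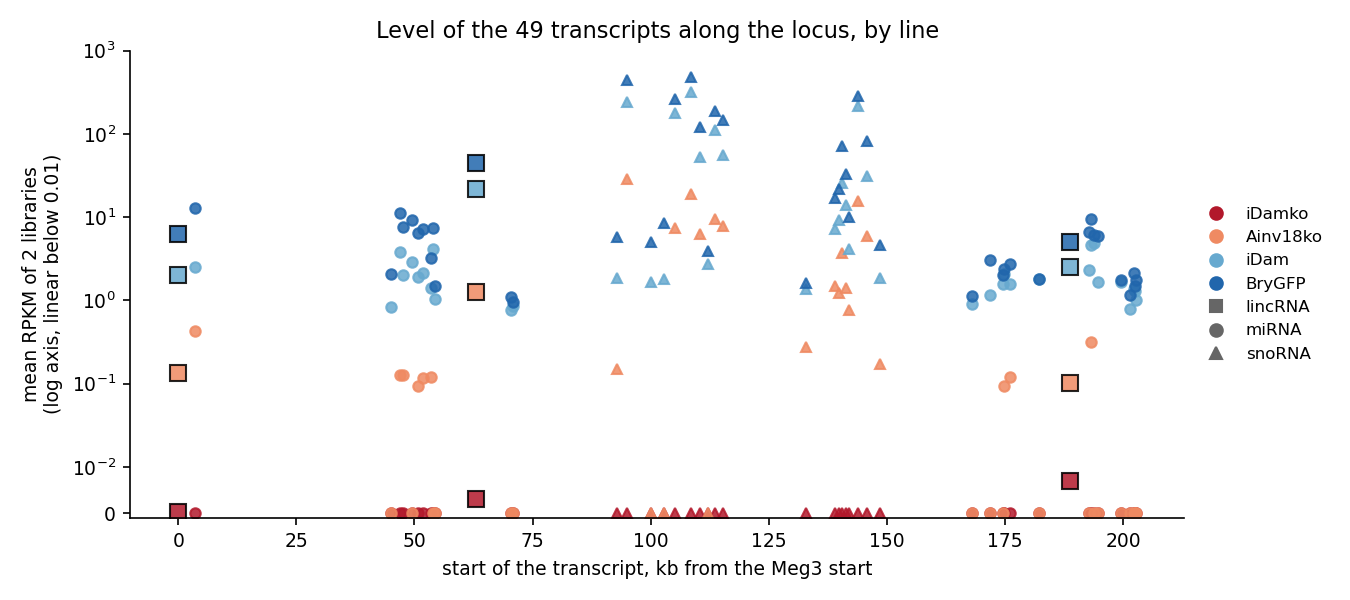
Mean RPKM of 2 libraries (log axis, linear below 0.01) of the 49 transcripts against their start in kb from the Meg3 start, for iDamko, Ainv18ko, iDam and BryGFP (colours) and lincRNA, miRNA and snoRNA (shapes). The snoRNAs in the middle reach 488 RPKM in BryGFP, the iDamko points lie at or close to 0 throughout, and the Ainv18ko points lie at 0 for 21 members and between iDamko and the wt lines for the other 28, those above 1 RPKM being Rian and snoRNAs.

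The ko lines differed over part of the region. In each iDamko library 47 of the 49 members were listed at 0, the exceptions being Rian and Mirg in library 1 and Rian and Meg3 in library 2. Both iDamko libraries lay below both Ainv18ko libraries for 17 members, 13 of them snoRNAs, against 11.3% of all rows. In the Ainv18ko libraries 24 and 29 members were at 0, and in the wt libraries none of the 49. Among the other rows that were lower in ko, 15 and 9 were at 0 in iDamko and 14 and 21 in Ainv18ko, so the excess of iDamko zeros was not seen there. The reads over the 46 small RNA genes were estimated at 0 and 0 in iDamko, which at a floor of 3 reads allows up to 0.05 to 0.075 RPM (reads scaled to library depth) for iDamko depths of 60000000 to 40000000 reads. The same sum was 370 and 339 reads in Ainv18ko, 4428 and 4728 reads in iDam and 7221 and 9260 reads in BryGFP. Scaled by depth, Ainv18ko had 8.32 and 8.0 RPM, iDam 83.4 and 112 RPM, and BryGFP 162 and 178 RPM, with no overlap between lines. These floors and sums cover counting error only.

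**Figure D4:**
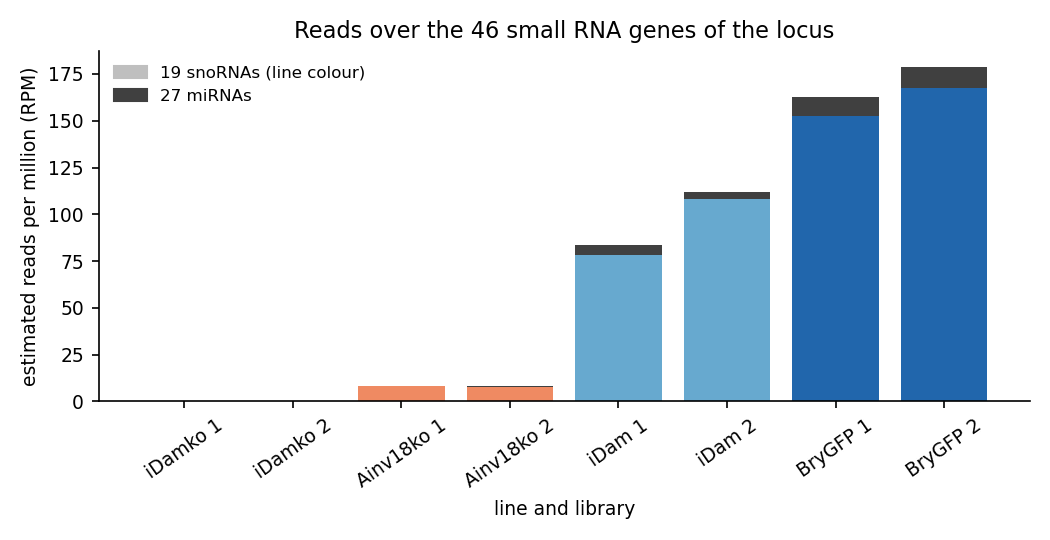
Estimated reads in RPM over the 19 snoRNAs (line colour) and 27 miRNAs (dark) of the region in each library. The iDamko bars are at 0, the Ainv18ko bars at 8.32 and 8.0, the iDam bars at 83.4 and 112, and the BryGFP bars at 162 and 178 RPM.

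By limma on log2(RPKM + 1), with 1 mean per line and Benjamini-Hochberg adjustment over the 360 rows with a mean of at least 1 RPKM, 13 rows (3.61%) differed between iDamko and Ainv18ko, and 12 (3.33%) were lower in iDamko. Of the 49 members 36 reached that level, and 11 of them passed, all lower in iDamko: 10 snoRNAs and Rian. The other 2 rows, named because they are the only ones left, were H19, an imprinted noncoding RNA of another chromosome, which was higher in iDamko (log2 difference 1.24 ± 0.28 SE, limma adjusted p = 0.0448), and Acta2, the smooth muscle actin gene, which was lower (log2 difference -1.52 ± 0.29 SE, limma adjusted p = 0.0190). H19 had 7.43 and 4.04 RPKM in iDamko, against 2.25 and 1.34 RPKM in Ainv18ko. Among the members the largest difference was that of AF357425 (log2 -4.87 ± 0.27 SE, limma adjusted p = 3.64e-06), followed by DQ267100 (-4.32 ± 0.24 SE, limma adjusted p = 3.64e-06). Since iDamko was at 0 for these snoRNAs, the sizes depend on the pseudocount and are no bounds. Rian differed by -1.17 ± 0.24 SE (limma adjusted p = 0.0244). Without iDamko library 1 or 2, or Ainv18ko library 1, the adjusted p for Rian was 0.107, 0.0954 or 0.183. Gm23736 lost its call without any 1 of the 4 ko libraries (limma adjusted p of 0.0525 to 0.232, against 0.0277 with all). The 15 miRNAs tested reached the filter through the wt libraries, were at 0 to 0.634 RPKM in the ko libraries and included 6 at 0 in all 4, so a difference between the ko lines was not detectable for them at this depth. Meg3 (-0.18 ± 0.29 SE) and Mirg (-0.13 ± 0.18 SE) did not pass in limma, although their libraries did not overlap. No ko library exceeded 0.204 RPKM for Meg3 or 0.172 RPKM for Mirg. Beside the added 1 RPKM such values leave little room for a difference, so the ko lines are not read as alike for them.

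The level that remained in Ainv18ko is given by class, with no test between classes. Relative to the mean of the wt lines, Meg3, Rian and Mirg stood at 3.27%, 3.85% and 2.65% of the wt level. The snoRNAs had a median of 6.41% of wt, ranging from 0% to 18.4%, and 13 of 19 were above 0 in both Ainv18ko libraries and 16 in at least 1. The miRNAs had a highest value of 5.52%, and 9 of 27 were above 0 in at least 1 Ainv18ko library, with Mir1906-1 alone above 0 in both. In the wt libraries a miRNA had a mean of 3.22 to 32.2 estimated reads, with a median of 10.5, so at this depth a value of 0 in Ainv18ko does not set a miRNA below the share of the snoRNAs. Summed over each class, the snoRNAs had 361 and 336 reads in Ainv18ko, which is 6.34% of the wt mean at equal depth, and the miRNAs had 8.72 and 3.00 reads, which is 1.82%. With 3 to 9 miRNA reads per library, the miRNA share is known only loosely. The highest single share, that of Gm23347, rests on 0.549 and 0 RPKM in Ainv18ko, and no order is read from it.

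The wt lines also differed, in a contrast on which the table had not been selected. All 49 members had a lower mean in iDam than in BryGFP, with a median ratio of 0.488 and a range of 0.195 to 0.994, against a median of 0.958 over the other rows with a value in BryGFP. Both iDam libraries lay below both BryGFP libraries for 36 of the 49 members and above them for 0. Over the table, iDam lay below BryGFP in this way for 213 rows (34.2%) and above for 136 (21.9%). By limma, 27 of the 36 members tested were lower in iDam and none was higher, while over the 360 rows tested 91 (25.3%) differed, 69 of them (19.2%) lower in iDam. Without the filter, which members pass through their wt values, 26 of the 49 and 133 of the 622 rows differed. The members' median log2 difference was -1.14, against -0.10 over all rows tested. Those lower in iDam were 3 of 3 lincRNAs, 10 of 15 miRNAs and 14 of 18 snoRNAs. Under quantile normalization, where the median of all rows stood at 0.15, 22 members were lower, and AF357425 (log2 0.068), DQ267100 (0.38), Mir485 (0.096), Mir1193 (0.061) and Gm23508 (0.031) lay on the other side of 0 without passing. The count of 27 was 17 without iDam library 1, 16 without iDam library 2 and 13 without BryGFP library 2.

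Among the 36 members tested, the largest difference between the wt lines was that of Mir1906-1 (log2 -1.99 ± 0.27 SE, limma adjusted p = 0.00172), then Gm23600 (-1.76 ± 0.16 SE, limma adjusted p = 0.000289) and Mir3070b (-1.56 ± 0.24 SE, limma adjusted p = 0.00193). Since Mir1906-1 lies in an exon of Meg3, its reads cannot be told apart from those of its host. Its hairpin was not compared with those of other genes, so whether a similar copy shares its reads was not checked. Gm23600 had 1.59 and 2.00 RPKM in iDam, against 8.23 and 8.69 RPKM in BryGFP. Meg3 differed by -1.28 ± 0.29 SE (limma adjusted p = 0.0117), Rian by -0.97 ± 0.24 SE (limma adjusted p = 0.0159) and Mirg by -0.77 ± 0.18 SE (limma adjusted p = 0.0145). The lincRNA calls did not hold without some libraries. Without iDam library 2 the adjusted p was 0.0744 for Meg3, 0.0629 for Rian and 0.0772 for Mirg, and without BryGFP library 2 it was 0.0992, 0.141 and 0.0992 in the same order. Rian also lost its call without iDam library 1, at 0.0851, and Mirg at a pseudocount of 0.1, at 0.142. The smallest differences among those tested were those of Mir1193 (-0.14 ± 0.16 SE), Gm23508 (-0.25 ± 0.33 SE) and Mir485 (-0.25 ± 0.20 SE), which did not pass. The value of Gm23508 rests on single BryGFP libraries: it was -0.88 without BryGFP library 1 (limma adjusted p = 0.0147) and 0.38 without BryGFP library 2 (limma adjusted p = 0.212). Of the members too low to test, Mir654, Mir377 and Mir1188 had ratios of iDam to BryGFP of 0.994, 0.955 and 0.898, nearer to 1 than that of Mir1193 at 0.864.

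Along the chromosome, the ratio of iDam to BryGFP had its lowest median at the Meg3 end. Its median was 0.259 over Meg3 and Mir1906-1, 0.342 over the 9 miRNA genes between Meg3 and Rian, 0.431 over the 22 members of Rian and the snoRNA array, and 0.652 over the 16 members beyond the array, which are Mirg and the distal miRNAs. In the same order 2 of 2, 6 of 7, 15 of 19 and 4 of 8 tested members were lower in iDam. Ranges overlapped between all 4 stretches, at 0.195 to 0.323, 0.264 to 0.696, 0.212 to 0.898 and 0.279 to 0.994. The members of a stretch share transcripts and libraries, and the distal members have the fewest reads, so the order is a description. Summed reads at equal depth gave ratios of 0.356 between Meg3 and Rian, 0.582 over the array and 0.583 beyond it, and so did not separate the last 2 stretches.

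**Figure D5:**
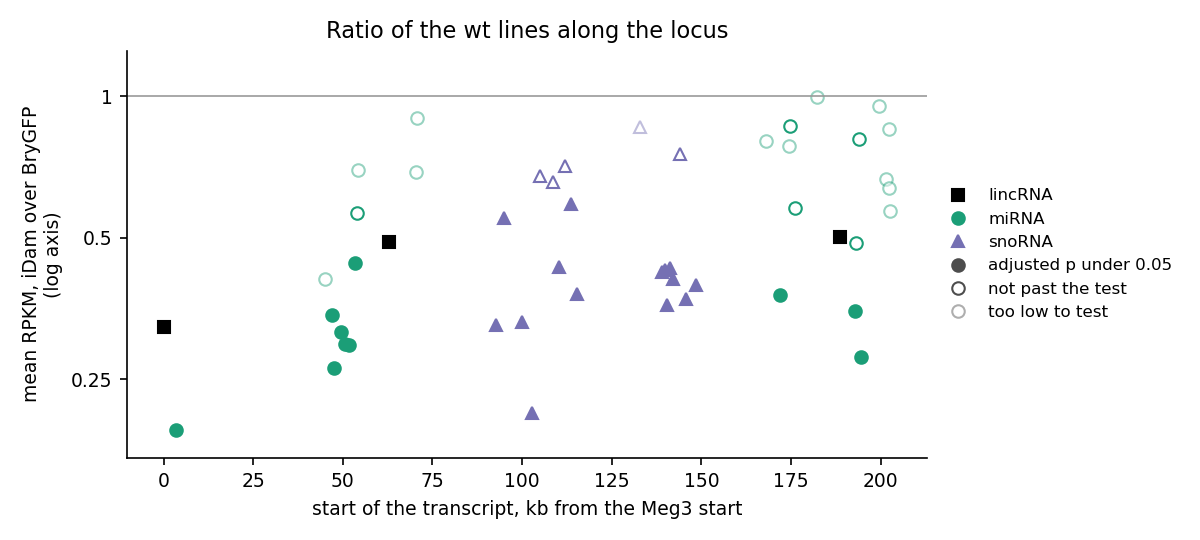
Ratio of mean RPKM, iDam over BryGFP (log axis), for the 49 members against their start in kb from the Meg3 start; filled points had a limma adjusted p under 0.05, open points did not pass, and faint open points were too low to test. All points lie below 1, from 0.195 at Mir1906-1 to 0.994 in the distal cluster.

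The ko difference was then set apart for the pairs iDamko with iDam and Ainv18ko with BryGFP. BryGFP is another line than Ainv18. In the second pair, and in the difference between the pairs, ko and line therefore cannot be told apart. All 36 tested members were lower in iDamko than in iDam, where 99.2% of rows were called and 56.4% were lower, and all 36 were lower in Ainv18ko than in BryGFP, where 98.3% were called and 56.1% were lower. Over the 4 ko and 4 wt libraries the 36 were lower as well, with 56.7% of rows lower. The selection of the table fixes these calls. The difference between these effects passed for 14 of the 36 members, against 9.72% of all rows. It was negative, a larger drop from iDam to iDamko than from BryGFP to Ainv18ko, for 7 snoRNAs (3.61% of all rows). It was positive for 6 miRNAs and the snoRNA Gm23600 (6.11% of all rows). AF357425 had a log2 difference of -7.93 for iDamko against iDam and of -3.91 for Ainv18ko against BryGFP, a difference of -4.02 ± 0.38 SE (limma adjusted p = 0.000246). For Gm23600, listed at 0 in all ko libraries, the difference of 1.76 ± 0.23 SE (limma adjusted p = 0.00175) has by construction the size of its difference between the wt lines. The same holds for Mir758, Mir382 and Mir453, so these calls measure no difference between ko effects apart from that of the wt lines. Mir3070a, Mir3070b and Mir1906-1 had wt line differences of -1.34, -1.56 and -1.99, and ko line differences of -0.16, -0.16 and -0.51. Their positive values of 1.18, 1.40 and 1.48 thus rest mostly on the wt lines as well. The positive count depended on the pseudocount, with 2 members at a pseudocount of 0.1, where 14 were negative.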

How the data were processed

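RNA-seq was analysed for 8 libraries, 2 each of iDamko, Ainv18ko, iDam and BryGFP, from 1 deposited table of 622 rows. Per the labels' protocols, ribosomal RNA was removed from total RNA before SOLiD library preparation; the submitters' processing notes name edgeR and mm9, and no source used here gives the aligner, counting rule or annotation. Per the file headers, the authors' deposited table gives log2 folds, mean log2 CPM, p-values and FDR for 2 comparisons; the log2 signs are wt over ko and are given here in words. The deposited value per library has no unit in the header, and whole-read steps and lengths put it on the RPKM scale. Columns name lines, not samples; the ko columns with no Dam in their name were taken as Ainv18ko. The 4 ko columns recur with identical values and were used once.

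Reads were estimated as RPKM times M21 gene length times implied depth; depth was searched from 40000000 to 60000000 in steps of 10000, since multiples of a depth fit as well, and 78.6% to 100% of the 2 to 32 low values used per library (2 in each iDamko library) lay within 0.1 of a whole read. The design named a count test for counts; RPKM took limma 3.58.1 (R 4.3.3, mean-variance trend, two-sided) on log2(RPKM + 1), which understates changes of low genes. P-values measure the spread between libraries called biological duplicates. Members, lists and tests were chosen with earlier results of these data known. Named genes were the lincRNAs, Mir3070a and Mir3070b, the first and last member, and by class those of highest mean, largest and smallest authors' fold, and largest difference between lines. The scripts were tested on simulated data. Alternatives were other pseudocounts, no filter, quantile and median-ratio scaling, no trend, replicate blocks and leaving out each library.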

Additional observations from a re-analysis of the deposited data

Results flagged for a closer look

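The limma test of the difference in ko effect between the pairs iDamko with iDam and Ainv18ko with BryGFP, on log2(RPKM + 1), passed for 14 members. For 7 snoRNAs the difference was negative: AF357425 (-4.02), DQ267100 (-3.70), Gm23787 (-3.55), Gm26922 (-2.61), Gm24895 (-2.50), DQ267101 (-1.64) and Gm25854 (-1.37). All 7 were at 0 in iDamko and above 0 in both Ainv18ko libraries. For 6 miRNAs and 1 snoRNA it was positive: Mir758 (0.92), Mir3070a (1.18), Mir382 (1.19), Mir453 (1.38), Mir3070b (1.40), Mir1906-1 (1.48) and Gm23600 (1.76). Mir758, Mir382, Mir453 and Gm23600 were at 0 in all 4 ko libraries, so their values have by construction the size of their differences between the wt lines. Mir3070a, Mir3070b and Mir1906-1 had at most 2 estimated reads per ko library, so their values also rest mostly on the wt lines. The calls for AF357425, DQ267100, Gm23787, Gm26922, Gm24895, Gm23600 and Mir453 passed in every leave-one-out fit, and each of the other 7 was lost without at least 1 library. For DQ267101 the limma adjusted p without 1 library reached 0.161, for Gm25854 0.0962 and for Mir1906-1 0.128.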

How the results depend on the processing

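Members past the limma threshold numbered 27 lower in iDam than in BryGFP, and 16 at a pseudocount of 0.1; leaving out 1 library gave 13 to 28. For the difference between the ko effects, 7 members were negative, and 14 at a pseudocount of 0.1, with 5 to 8 without 1 library; 7 were positive, and 2 at a pseudocount of 0.1 and 4 at 0.5, with 2 to 8 without 1 library. Between the ko lines 11 members were called, 9 to 15 over the alternatives; in the contrasts of ko with wt all members tested stayed called except 32 of 36 in iDamko against iDam under quantile normalization. AF357425 between the wt lines turned to 0.068 under quantile normalization (limma adjusted p = 0.898), where its main p was 0.0466 and 0.0192 to 0.293 without 1 library, and Mir1906-1 in the difference between ko effects to -0.0136 at a pseudocount of 0.1. Over all rows, the count between the wt lines was 91, with 133 without the filter and 42 to 96 without 1 library; that for the difference between ko effects was 35, with 53 under the replicate block, 51 with quantile normalization and 15 to 25 without 1 library. The median log2 difference of ko and wt over all rows was -0.83, and -0.18 under quantile and -0.19 under median-ratio scaling; that of the wt lines was -0.10, and 0.15 under quantile normalization.

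The library numbers paired no samples by design. Deviations of same-numbered libraries correlated at 0.69 between iDamko and Ainv18ko, 0.52 between Ainv18ko and iDam and 0.41 between iDamko and iDam. They correlated at -0.031 between iDamko and BryGFP, 0.0078 between Ainv18ko and BryGFP and -0.20 between iDam and BryGFP, so not every pair exceeded 0.1. With the replicate block 29 members were lower in iDam than in BryGFP, 11 lower in iDamko than in Ainv18ko, 8 negative and 7 positive for the difference, and 36 in each contrast of ko with wt. With the BryGFP numbers crossed, a block chosen after seeing the data, 28 members were lower in iDam. Most miRNA values rest on few reads, so differences between lines for single miRNAs are limited by depth.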

Other observations

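Gm22962, a SNORD113-labelled row outside the region (chr9:68510163-68510235, GRCm38), differs from AF357425 by 4 edits over its 73 bases. It was at 0 and 0 RPKM in iDamko and 0.308 and 0 RPKM in Ainv18ko, against 5.68 and 17.5 RPKM in iDam and 12.9 and 13.7 RPKM in BryGFP. These values stand for an estimated 0 and 0 reads in iDamko, 1 and 0 in Ainv18ko, 22 and 54 in iDam, and 42 and 52 in BryGFP. Whether reads of AF357425 were placed on Gm22962 was not tested.

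Of 42 other imprinted gene symbols listed, with Plagl1 and Zac1 naming the same gene, 7 were in the table. All 7 were lower in ko, where 62.2% of all rows were lower: H19, Grb10, Slc22a3, Ndn, Magel2, Nnat and Klf14. Nnat, which encodes neuronatin, had 0.131 and 0.0758 RPKM in iDamko and 0.0929 and 0.0434 RPKM in Ainv18ko, against 1.37 and 0.525 RPKM in iDam and 26.6 and 36.5 RPKM in BryGFP. For Ndn, which encodes necdin, the ko lines overlapped, with 15.5 and 22.0 RPKM in iDamko and 17.9 and 20.2 RPKM in Ainv18ko, against 36.9 and 37.1 RPKM in iDam and 34.6 and 33.5 RPKM in BryGFP. These genes were named after their values were seen.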
